A study of Rattus norvegicus with 12 samples.

Results

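The comparison of fluoxetine with saline in stressed rats rests on 6 of the 12 RNA sequencing libraries of the series, all from the hippocampus of Sprague Dawley rats whose stated age is 6 to 7 weeks. Both groups were stressed by CUMS, or chronic unpredictable mild stress, a procedure of varied mild stressors used to model depression in rodents, for 5 weeks. For the last 7 days the CUMS-Flx rats received fluoxetine and the CUMS-Sal rats received saline, with 3 libraries in each group. For fluoxetine the labels of the libraries give 10 mg/kg/d, and the design text gives 7 mg/kg/d. The remaining groups, 3 libraries each, are unstressed rats given saline (Ctrl-Sal) and stressed rats given albiflorin, a monoterpene glycoside of peony root, at 7 mg/kg/d (CUMS-Alb). No group received fluoxetine without stress, so a fluoxetine effect in unstressed tissue is not part of these data. Whether replicate libraries were made from different rats is not stated, so the p-values measure only how much these libraries differ, which may be technical.

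Of 28959 rows in the deposited table, the 15253 that averaged 0.5 FPKM or more across all 12 libraries were compared. FPKM is the number of reads of a gene scaled to its length in kilobases and to the total reads of the library. Whole reads and a whole length per gene were recovered from these values, as the shortest length that fits all libraries. Where the reads of a gene share a common factor, the recovered length and reads are too small. The libraries held 14735953 to 18109623 reads. The rows carry Ensembl IDs or a running number for loci without one, and the sources used here pair none of the 27068 Ensembl IDs with a gene name. Genes are therefore described by length, level and behaviour across libraries, at most 2 per direction by ID, and no pathway list or cell type marker was matched to a row, those that would check the tissue label included.

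Fluoxetine blocks the serotonin transporter, which takes serotonin back into the nerve endings that released it, so that serotonin stays longer outside the cells. In the hippocampus, which receives serotonin fibres from the raphe nuclei, receptors of several families respond to it, and slow adaptations of transcription, synapses and the birth of granule neurons have been tied to treatment lasting weeks. A treatment of days lies near the start of that time course. The tissue here is bulk hippocampus, in which less RNA per cell and fewer cells of a type cannot be told apart.

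No single gene passed the test between CUMS-Flx and CUMS-Sal, and the differences were small and leaned towards lower levels with fluoxetine. At a Benjamini-Hochberg adjusted p under 0.05 limma called 0 of 15253 genes (0%), and limma-voom on the recovered reads called 0 as well. At an unadjusted p under 0.05 were 1523 genes (9.98%) in the limma fit: 339 genes (2.22%) stood higher in CUMS-Flx and 1184 (7.76%) stood lower. The groups did not overlap in 2726 genes (17.9%). In 649 genes (4.25%) every CUMS-Flx library lay above every CUMS-Sal library, and in 2077 (13.6%) every one lay below. Of all tested genes 10051 had a log2 difference below 0 and 5202 one above 0. The difference had a median of 0.26 among the 339 genes and of -0.31 among the 1184, on the scale log2(FPKM + 0.5), which understates differences of low genes.

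**Figure D1:**
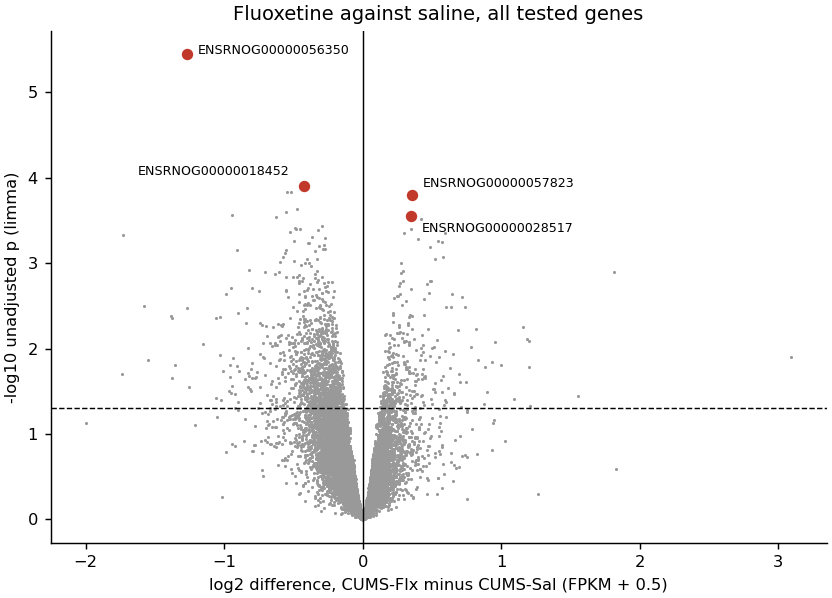
Each point is 1 of 15253 genes, with its log2 difference (CUMS-Flx minus CUMS-Sal, on FPKM + 0.5) on the horizontal axis and the -log10 of its unadjusted limma p on the vertical axis. The dashed line marks the unadjusted limma threshold of 0.05, above which 1184 genes lie on the left and 339 on the right, and the 4 genes described by ID are in red.

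For most genes the interval of the difference was narrow. The median SE of a difference was 0.12 log2 units, and the median 95% interval of limma reached 0.25 log2 units, or 1.19-fold, to either side. For 12600 genes (82.6%) the interval lay within 1.5-fold in both directions, and for 14788 (97%) within 2-fold. These intervals hold for 1 gene at a time and are not adjusted for the number of genes. The bound was tighter where more reads were counted. Among genes above 15.4 FPKM 96.5% were bounded within 1.5-fold, and among genes up to 3.72 FPKM 61.7% were. After centring each library on its median deviation, 12920 genes were bounded within 1.5-fold.

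Differences over 2-fold were few and lay mostly on few reads. On the same scale, a difference over 1.5-fold was found for 61 higher and 147 lower genes, of which 30 and 89 did not overlap between the groups. A difference over 2-fold was found for 13 higher and 22 lower genes. Of these 35 genes, 20 had fewer than 20 reads per library on average, and 9 varied more than 4-fold among the libraries of CUMS-Sal or of CUMS-Flx. Rows without an Ensembl ID made up 25.7% of the 35, against 8.82% of the tested genes. Such rows are also lower in level, with a median of 1.35 FPKM against 9.36 for genes with an ID. Their share was not compared at like level. No gene with at least 5 reads in each library of one group was without reads in all libraries of the other (0 in either direction).

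The count of higher against lower genes depended on how the libraries were scaled. The median log2 difference of all tested genes was -0.05. With each library centred on its median deviation, 716 genes (4.69%) stood higher and 651 (4.27%) lower at an unadjusted p under 0.05 in the limma fit. Quantile normalization gave 653 higher and 589 lower, and rescaling the FPKM to the reads outside the 9 most abundant genes gave 482 and 903. Of the 1523 genes at an unadjusted p under 0.05, 990 (65%) were under it again in the same direction after centring, among them all 339 higher ones, and 651 of the 1184 lower ones. None of the 1523 changed sign. Since centring raises every difference here by the same amount, the keeping of the higher genes and the loss of lower ones largely follow from it. Centring sets the median difference to about 0 and quantile normalization equalizes the libraries, so a near-even split on these scales follows from their construction. A shift of the library scale and a shift of many genes cannot be told apart here. On the centred scale 1 gene passed the adjusted threshold.

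**Figure D2:**
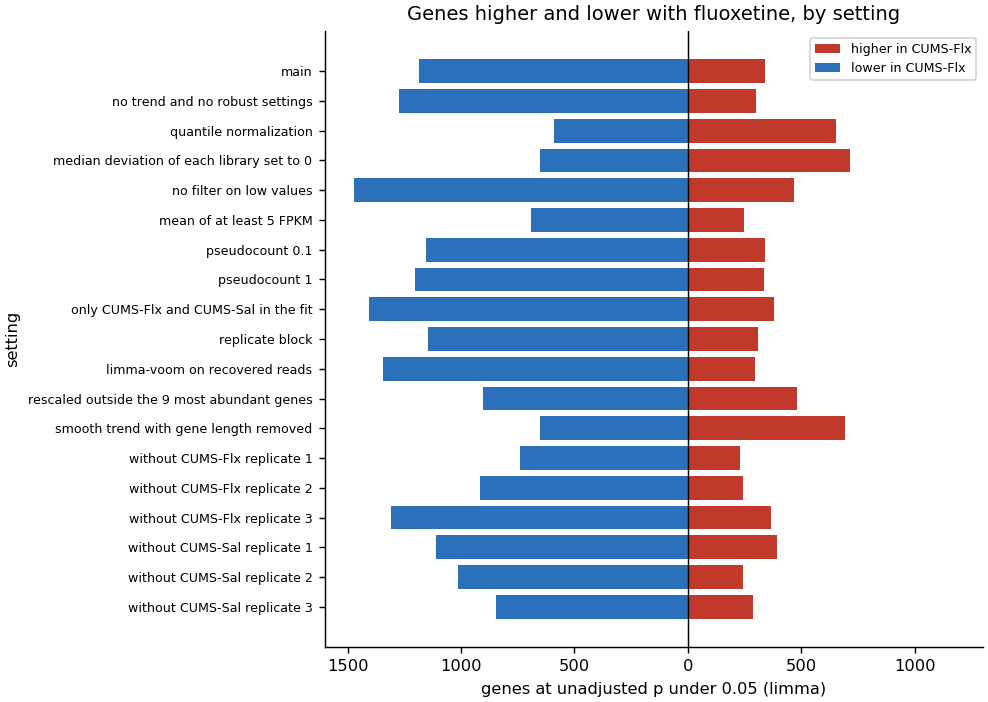
Bars give the number of genes at an unadjusted limma p under 0.05 that stood higher (red, to the right) or lower (blue, to the left) in CUMS-Flx, for the main setting and each alternative. The excess of lower genes, 1184 against 339, gave way to 716 higher and 651 lower when each library was centred on its median deviation, which sets the median difference to about 0 by construction.

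The 3 CUMS-Flx libraries did not stand equally far from saline. Relative to the CUMS-Sal mean, the median gene stood at -0.09 in CUMS-Flx replicate 1, at -0.04 in replicate 2 and at -0.02 in replicate 3, on the log2 scale. The CUMS-Sal libraries lay at 0.0058, -0.0059 and 0.0055, so the groups did not overlap, and replicate 1 was the farthest. Among the 2077 genes that lay below all CUMS-Sal libraries, replicate 1 was the lowest of the 3 CUMS-Flx libraries in 1138, replicate 2 in 595 and replicate 3 in 344. Among the 649 that lay above, replicate 1 was the highest in 311, replicate 2 in 189 and replicate 3 in 149. The largest principal component of the 6 libraries held 31.8% of the variance and ran from CUMS-Flx replicate 1, at -22.1, through replicates 2 and 3, at -8.3 and -2.9, to the CUMS-Sal libraries, at 5.4, 13.3 and 14.5.

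Without CUMS-Flx replicate 1, 228 genes stood higher and 740 lower at an unadjusted p under 0.05 in the limma fit, and of the 1523 genes 775 (50.9%) were under it again in the same direction. Leaving out another of the 6 libraries kept 57.8% (CUMS-Sal replicate 3) to 74% (CUMS-Flx replicate 3), so a loss came with each. CUMS-Flx replicate 1 also deviated from its group in part as Ctrl-Sal replicate 2, which stands far from the other libraries of the series, deviates from its own. The correlation of these deviations was 0.29 for CUMS-Flx replicate 1, and -0.15 and -0.16 for replicates 2 and 3. Deviations are taken from the mean of the same group, so the negative values are tied to the positive one and add nothing separate. The correlations run across genes, and genes are not independent replicates. What sets these libraries apart was not tested.

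The 9 most abundant genes, each over 1% of all reads and 681 to 1830 bp long, were raised most in that library. They were chosen by their level in all 12 libraries. Their share of the reads was 18.8, 15.5 and 15.3% for replicates 1, 2 and 3 of CUMS-Flx, and 14.8, 14.7 and 15.04% for those of CUMS-Sal. All CUMS-Flx values lay above all CUMS-Sal values, but replicates 2 and 3 did so by little. The means were 16.5% ± 1.99 and 14.9% ± 0.157 (SD, n = 3). A two-sided exact permutation test gave p = 0.1, below which 3 against 3 libraries cannot go, and 0.133 after Benjamini-Hochberg adjustment over 4 measures per library. Ctrl-Sal stood at 19.95% ± 2.32 and CUMS-Alb at 15.1% ± 0.485.

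Gene by gene, 8 of the 9 stood higher in CUMS-Flx, with log2 differences of -0.03 to 0.22 and a median of 0.15, against -0.05 for all tested genes. None reached an unadjusted p under 0.05 in the limma fit (smallest 0.0632), and 4 of the 9 lay higher without overlap between the groups, against 4.25% of all genes. The most abundant, 1545 bp long, lay at 27061 to 32891 FPKM with fluoxetine and at 23162 to 25978 with saline, without overlap. The longest of the 9, at 5335 to 6225 against 5501 to 6330 FPKM, overlapped throughout. Without CUMS-Flx replicate 1 the log2 differences of the 9 were -0.10 to 0.13, with 5 above 0, and after quantile normalization, which gives every library the same distribution of values, they were -0.15 to 0.06.

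Differences varied with the length of the gene and, more, with its level. Across the 15253 genes the Spearman correlation of the log2 difference was -0.11 with length and 0.19 with the mean FPKM, while length and level were nearly unrelated to each other (-0.0134). Genes of up to 1600 bp had a median log2 difference of -0.03, those of 1600 to 2800 bp one of -0.05 and those over 2800 bp one of -0.07. At an unadjusted p under 0.05 in the limma fit, 211 of 5066 short genes stood higher and 338 lower, against 46 and 430 of 5099 long ones. By level, the median was -0.09 for genes up to 3.72 FPKM, -0.07 from there to 15.4 FPKM and -0.02 above. The counts were 79 higher and 413 lower among the 5085 low genes and 179 and 299 among the 5084 high ones. The median of high genes minus that of low genes was 0.07, and 0.0047 after quantile normalization, which removes a shift that depends on level by construction. The median of short minus long genes was 0.04 on both scales, and 0.03 to 0.06 when each of the 6 libraries was left out in turn.

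The level relation was present in each CUMS-Flx library and the length relation in fewer. In low, middle and high genes the median stood at -0.12, -0.11 and -0.06 in CUMS-Flx replicate 1, at -0.10, -0.06 and 0.0043 in replicate 2 and at -0.05, -0.03 and -0.0050 in replicate 3. All 3 lay below the CUMS-Sal libraries in the low and middle genes, and replicates 2 and 3 lay among them in the high genes. From short to long genes the median went from -0.05 to -0.11 in replicate 1 and from -0.01 to -0.06 in replicate 2, but in replicate 3 it was -0.02 in all 3 classes. The correlation with length was accordingly -0.12, -0.14 and -0.0055 in the 3 libraries, and it was -0.06, 0.10 and -0.06 in the CUMS-Sal libraries, each against the mean of the other two. The correlation with level was 0.13, 0.22 and 0.09 with fluoxetine and 0.02, -0.03 and -0.0088 with saline. For length the values of CUMS-Flx replicates 1 and 2 were thus little larger in size than that of CUMS-Sal replicate 2, of the other sign. Relative to the CUMS-Sal mean, the correlation with length was -0.19, -0.05 and -0.13 in Ctrl-Sal and -0.08, -0.0045 and 0.02 in CUMS-Alb. The value of Ctrl-Sal replicate 1, without fluoxetine, was thus larger in size than that of every CUMS-Flx library. For level all 3 CUMS-Flx values exceeded those within CUMS-Sal, but they share the CUMS-Sal mean as baseline. Against the same mean, the correlation with level was 0.04, 0.07 and 0.14 in Ctrl-Sal and -0.0044, 0.06 and -0.00010 in CUMS-Alb. Ctrl-Sal replicate 3, without fluoxetine, thus lay above CUMS-Flx replicates 1 and 3.

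**Figure D3:**
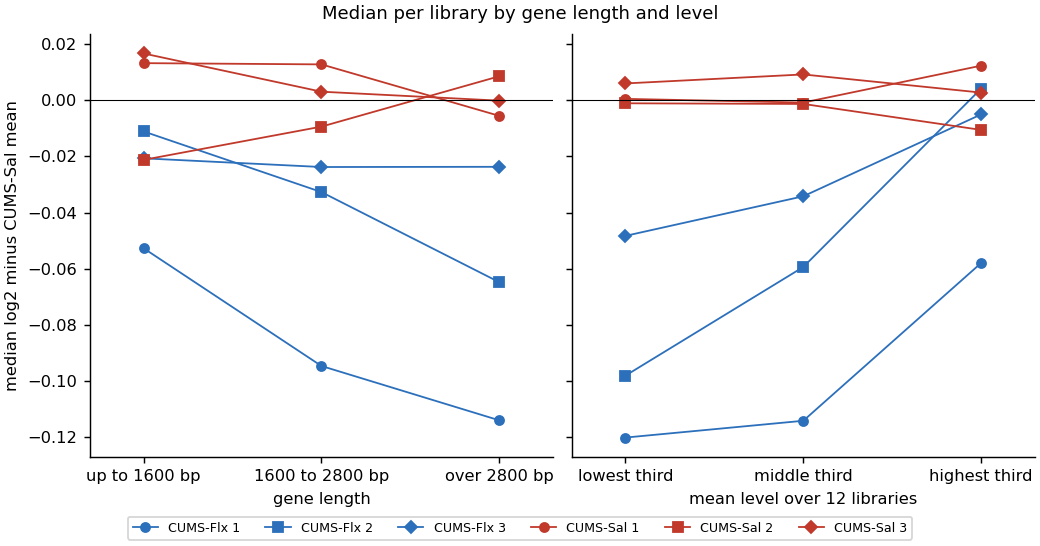
Lines join the median log2 value of each library, relative to the CUMS-Sal mean, over genes of 3 length classes (left) and 3 classes of mean level over 12 libraries (right). All 3 CUMS-Flx libraries (blue) lie below the CUMS-Sal libraries (red) in low and middle genes, while in high genes replicates 2 and 3 lie among them.

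Short genes of high level stood apart from the rest by the most. These 1830 genes, up to 1600 bp and above 15.4 FPKM, were picked as a class after the values were seen, and are given without a test of their own. Their median log2 difference was 0.01, against -0.05 for all genes, and they made up 12% of the tested genes and 34.2% of the 339 higher ones. At an unadjusted p under 0.05 in the limma fit 116 of them (6.34%) stood higher and 92 (5.03%) lower, against 2.22 and 7.76% of all genes. On the centred scale 240 of them (13.1%) stood higher and 50 (2.73%) lower at an unadjusted p under 0.05, against 4.69 and 4.27% of all genes. Without the 8 of the most abundant genes among them, 1822 genes stood 0.09, 0.08 and 0.02 above the median of all genes in CUMS-Flx replicates 1, 2 and 3. The CUMS-Sal libraries stood at 0.01, -0.03 and 0.01, so the groups did not overlap, though replicate 3 lay close to saline. Ctrl-Sal libraries stood at 0.11, 0.10 and 0.08 and CUMS-Alb libraries at 0.02, 0.01 and 0.0010. After quantile normalization 149 of the class stood higher and 86 lower, in place of 116 and 92. Without CUMS-Flx replicate 1 the uncentred counts were 69 and 54 of the class, beside 228 and 740 of all genes. Without CUMS-Sal replicate 2 they were 69 and 95 of the class, beside 245 and 1014 of all genes.

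Transcribed loci without an Ensembl ID lay lower than annotated genes in level, with much the same shares higher and lower. They had a median of 1.35 FPKM, against 9.36 FPKM for genes with an ID. At an unadjusted p under 0.05 in the limma fit, 26 of 1346 (1.93%) stood higher and 102 (7.58%) lower, against 2.25 and 7.78% of 13907 genes with an ID, and the median log2 difference was -0.06 against -0.05. All rows without an ID, tested or not, took up 2.13% ± 0.0332 of the CUMS-Flx reads and 2.19% ± 0.0530 of the CUMS-Sal reads (SD, n = 3). The same exact permutation test gave p = 0.1, again its lower limit, and 0.133 adjusted. The groups did not overlap, with 2.09, 2.14 and 2.154% against 2.25, 2.17 and 2.155%, but the nearest libraries were almost equal.

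The gene of smallest p, ENSRNOG00000056350, is 139 bp long and stood lower with fluoxetine. It had 2.09, 2.15 and 2.38 FPKM in replicates 1, 2 and 3 of CUMS-Flx, while those of CUMS-Sal had 5.51, 6.55 and 6.08. The genes given by ID were picked among genes whose CUMS-Flx and CUMS-Sal libraries did not overlap, so this separation follows from the choice. Ctrl-Sal, at 4.88, 5.06 and 6.24, and CUMS-Alb, at 6.53, 3.79 and 5.85, lay above CUMS-Flx too. Its log2 difference was -1.27 (SE 0.16, adjusted p = 0.0548 by limma), with a range of 0.00345 to 0.455 for that p under other settings. The values rest on 5, 5 and 6 reads with fluoxetine and 12, 14 and 13 with saline. The SD of these reads, 0.577 with fluoxetine and 1 with saline, lies below the 2.31 and 3.61 that counting error alone gives at their means.

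The next lower gene by the rule, ENSRNOG00000018452, rests on 1981 to 2960 reads per library. It is 5193 bp long, with 23.6, 26.7 and 29.8 FPKM under fluoxetine and 34.8, 36.5 and 36.1 FPKM under saline. The CUMS-Flx libraries spread more than those of CUMS-Sal. Its level was 26.7 ± 3.08 in CUMS-Flx and 35.8 ± 0.895 in CUMS-Sal, with 25.6 ± 0.992 in Ctrl-Sal and 32.0 ± 1.12 in CUMS-Alb (SD, n = 3). The log2 difference of -0.42 (SE 0.08) had an adjusted p of 0.298 by limma, and 0.111 to 0.617 over the alternatives.

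Among higher genes, ENSRNOG00000057823 had the smallest p. It is 2545 bp long and had 24.5, 26.01 and 22.7 FPKM in the fluoxetine group and 19.6, 18.3 and 18.7 in the stressed saline group. The CUMS-Flx libraries lay above the CUMS-Sal libraries, as the choice required. The CUMS-Sal libraries lay above Ctrl-Sal, at 14.9, 15.97 and 15.9, while CUMS-Alb, at 23.2, 21.4 and 22.9, lay near CUMS-Flx. The log2 difference was 0.36 (SE 0.07, 95% interval 0.21 to 0.51, adjusted p = 0.298 by limma, 0.162 to 0.704 over the alternatives).

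ENSRNOG00000028517, 708 bp long, was the next higher gene and showed another order of the groups. It had 16.6, 15.7 and 14.4 FPKM after fluoxetine, against 12.4, 12.03 and 11.9 after saline. Ctrl-Sal, at 16.1, 15.3 and 16.5, and CUMS-Alb, at 14.5, 14.0 and 15.3, also lay above CUMS-Sal, so that the stressed saline group was the lowest of the 4. The log2 difference between CUMS-Flx and CUMS-Sal was 0.35 (SE 0.07, adjusted p = 0.298 by limma, 0.182 to 0.762 over the alternatives). The comparisons of CUMS-Sal with each other group share its 3 libraries, so they do not support each other.

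**Figure D4:**
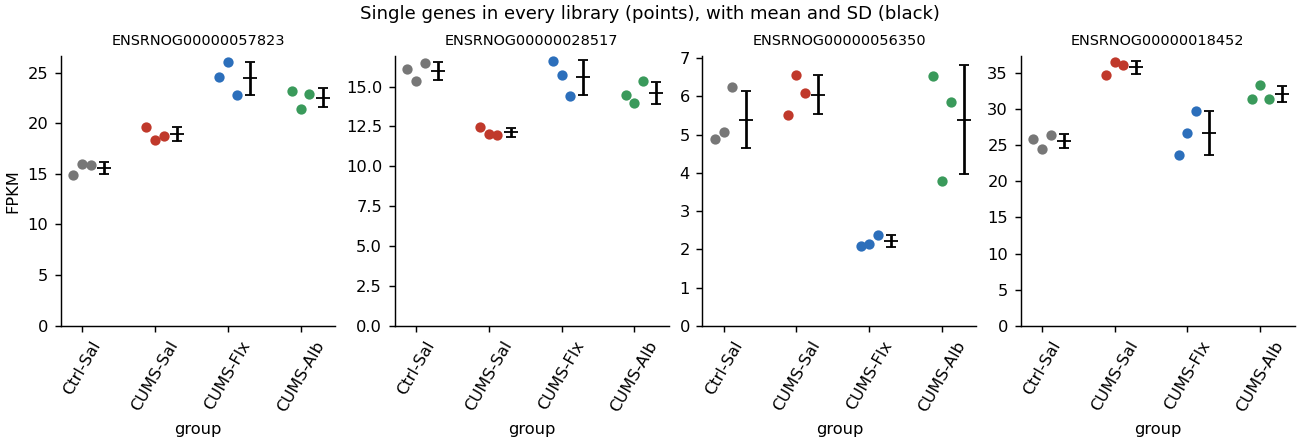
Points give the FPKM of 4 genes in each of the 12 libraries by group, and black marks give the mean and SD of the 3 libraries beside them. The 4 genes were picked among those whose CUMS-Flx libraries (blue) do not overlap the CUMS-Sal libraries (red), and ENSRNOG00000056350 lies at 2.09 to 2.38 FPKM in CUMS-Flx.

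The widest difference among genes with non-overlapping groups, an unadjusted limma p under 0.05 and a mean of at least 1 FPKM belonged to a gene of 4236 bp that was nearly silent in 2 CUMS-Sal libraries. Replicates 1, 2 and 3 had 1110, 1044 and 1215 reads with fluoxetine but 8, 953 and 11 reads with saline. In FPKM the CUMS-Flx libraries lay at 15.2, 14.7 and 15.8 and the CUMS-Sal libraries at 0.121, 14.6 and 0.169, so CUMS-Sal replicate 2 was at the level of CUMS-Flx. The log2 difference of 3.10 (SE 1.01) had an adjusted p of 0.402 by limma. Without CUMS-Sal replicate 2 it was 4.61, with a limma adjusted p of 1.96e-05. That library is the one that goes against the difference. Leaving it out makes a small p follow from the choice, so no conclusion is drawn from that p. Ctrl-Sal had 13.7, 8.18 and 13.2 FPKM and CUMS-Alb 14.7, 15.1 and 7.98, so that over the 12 libraries the values lay near 3 separate levels. A gene of 1984 bp, the next in size, had 3.99, 3.59 and 2.23 FPKM with fluoxetine and 0.676, 0.131 and 1.05 with saline. Its groups did not overlap, and the log2 difference was 1.81 (SE 0.44, limma adjusted p = 0.334). Ctrl-Sal had 0.718, 4.06 and 1.66 FPKM and CUMS-Alb 4.51, 2.83 and 5.65. Ctrl-Sal replicate 2, without fluoxetine, thus lay above every CUMS-Flx library.

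On the lower side the widest such difference was that of a locus without an Ensembl ID, 192 bp long. With fluoxetine it had 2, 3 and 2 reads, or 0.575 to 0.934 FPKM, and with saline 10, 11 and 10, or 3.33 to 3.72 FPKM. The log2 difference was -1.73 (SE 0.37, limma adjusted p = 0.298). Ctrl-Sal had 0, 1 and 4 reads and CUMS-Alb 5, 2 and 4, so CUMS-Sal was the highest of the 4 groups.

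Whether CUMS-Flx stood nearer to unstressed rats than CUMS-Sal was looked at in genes chosen by a contrast between the other groups. Between CUMS-Alb and Ctrl-Sal, limma called 332 genes higher (2.18%) and 49 lower (0.321%) in CUMS-Alb. Of the 332, 270 (81.3%) stood lower in CUMS-Flx than in CUMS-Sal, against 65.9% of all genes, and their median log2 difference was -0.12 against -0.05. At an unadjusted p under 0.05 in the limma fit 61 of them (18.4%) stood lower and 3 higher, against 7.76 and 2.22% of all genes. On the centred scale 42 (12.7%) stood lower and 6 (1.81%) higher, with a median of -0.06, against 4.27 and 4.69% of all genes. These genes were longer than most, with a median of 2840 bp against 2127 bp. Of the 49 genes 30 stood higher in CUMS-Flx, with a median of 0.04, and 4 were higher and 4 lower at an unadjusted p under 0.05. On the centred scale 6 of them (12.2%) stood higher and 1 (2.04%) lower. The 49 genes were shorter and higher in level than most, with medians of 972 bp and 25.6 FPKM against 2127 bp and 8.12 FPKM. Their median difference stood 0.10 above that of all genes, and 0.06 above it with the trend with gene length removed. The contrast between CUMS-Alb and Ctrl-Sal has no library in common with that between CUMS-Flx and CUMS-Sal, but the filter on low values and the variance estimates of the fit used all 12 libraries.

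By library, the shift of the 332 genes depended on CUMS-Flx replicate 1 and CUMS-Sal replicate 2. Relative to the median of all genes they stood at -0.13 in replicate 1, -0.04 in replicate 2 and -0.0056 in replicate 3. The CUMS-Sal libraries stood at -0.03, 0.06 and -0.02, so the groups overlapped. Ctrl-Sal stood at -0.33, -0.56 and -0.30 and CUMS-Alb at 0.02, 0.05 and 0.00043. The distance between Ctrl-Sal and CUMS-Alb follows from the choice of the 332 genes by that contrast. Without CUMS-Flx replicate 1 the median difference was -0.06 against -0.03 for all genes, and 28 of the 332 (8.43%) stood lower at an unadjusted p under 0.05 by limma, against 4.85% of all genes. Relative to that median, the 49 genes lay at 0.20, 0.09 and -0.01 with fluoxetine but at -0.0033, -0.03 and 0.03 with saline, and without CUMS-Flx replicate 1 their median difference stood 0.02 above that of all genes, in place of 0.10. The median of the 332 genes minus that of all genes was -0.06, and -0.02 both without CUMS-Flx replicate 1 and without CUMS-Sal replicate 2. It was below 0 without each of the 6 libraries in turn.

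**Figure D5:**
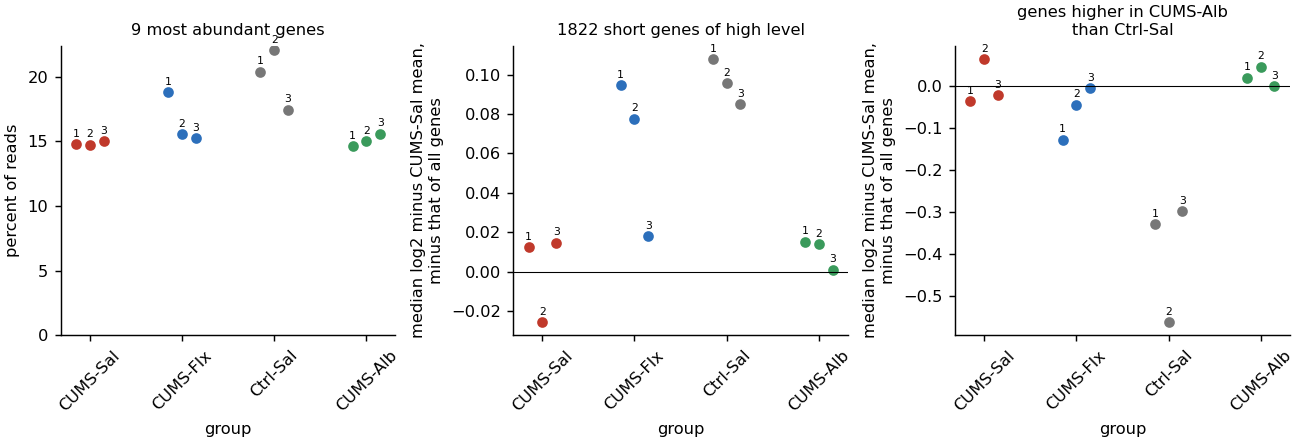
Numbered points are the 3 libraries of each group, with the percent of reads in the 9 most abundant genes (left), and the median log2 value relative to the CUMS-Sal mean and to all genes for 1822 short genes of high level (middle) and for 332 genes higher in CUMS-Alb than in Ctrl-Sal (right). Of the CUMS-Flx libraries replicate 1 lies farthest from CUMS-Sal in each, at 18.8%, 0.09 and -0.13, and in the right plot CUMS-Flx and CUMS-Sal overlap.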

How the data were processed

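Sample titles gave the groups. The tool TopHat2 and build rn6 are listed, without their roles, per the submitters' processing notes; counter, annotation release and strandedness were not given in the sources used here. What the authors deposited is FPKM; the header names no unit, which was read from the values. For 22737 of 22737 rows above 0 (100%), 1 whole length and whole reads (within 0.0001 of a read) gave the values.

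Limma 3.58.1 in R 4.3.3, with trend and robust settings, fitted log2(FPKM + 0.5) of all 12 libraries, 1 coefficient per group, over rows averaging 0.5 FPKM or more. The fit and the recovery of reads were tested on simulated data. Figures and summaries used matplotlib 3.10.9, numpy 2.4.6, pandas 2.3.3 and scipy 1.17.1 in Python 3.11.15. In each pair of replicates the reads differed by more than counting noise, so none was taken for a copy of another, which does not show that they came from separate rats.

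Genes named were those of smallest p in each direction, and those of largest difference at an unadjusted p under 0.05, with non-overlapping groups and an average of 1 FPKM or more. The rule also asked for gene symbols, which no source pairs with the rows (0 IDs matched), so it was applied to IDs. All 27 gene and marker lists went untested for the same reason. Groups, rules and lists were chosen with earlier results of these data known. Alternatives were limma without trend, quantile normalization, centring, 0.1 and 1 as pseudocounts, no filter or one of 5 FPKM, limma-voom (mean of at least 10 reads), only the 6 libraries, a replicate block, dropping each library in turn and a looser adjusted p of 0.1; rescaling outside the 9 most abundant genes and removing a trend with gene length were added after seeing the data.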

Additional observations from a re-analysis of the deposited data

How the results depend on the processing

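The count of 0 genes at an adjusted p under 0.05 by limma became 1 after quantile normalization, after centring, with a pseudocount of 0.1 and with rescaling outside the 9 most abundant genes, each time ENSRNOG00000056350, and 5 with only CUMS-Flx and CUMS-Sal in the fit; an adjusted p under 0.1 gave 1. Leaving out each library in turn gave 0 to 1. The 1 was the gene of 4236 bp without CUMS-Sal replicate 2, the only saline library in which it stood at the level of CUMS-Flx. In the other alternatives it stayed 0. The 339 higher and 1184 lower genes at an unadjusted p under 0.05 became 653 and 589 after quantile normalization, 716 and 651 after centring, and 695 and 652 with the trend with gene length removed. With a minimum of 5 FPKM, which leaves fewer genes, 690 stood lower. Leaving out libraries gave 228 to 393 higher and 740 to 1310 lower genes.

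Deviations of CUMS-Flx and CUMS-Sal libraries of the same replicate number correlated at 0.13, 0.02 and 0.03, and those of different number at -0.13 to 0.12. Replicate 3 of CUMS-Flx correlated best with replicate 2 of CUMS-Sal, at 0.12. Deviations are taken from the group means, so these values are tied to each other. They cannot settle whether the replicate numbers pair the samples. With the replicate number as a block 0 genes were called by limma, and 308 stood higher and 1148 lower at an unadjusted p under 0.05. The 4 genes given by ID kept their direction under every alternative that held them. They were picked for groups without overlap, so dropping a library or changing the pseudocount could not turn it. Limma without trend, the fit of only the 6 libraries and the replicate block leave the difference unchanged. The kept direction therefore largely follows from the choice. The median of the 332 genes relative to all genes kept its sign over all 18 alternatives, at -0.09 to -0.02, the weakest without CUMS-Flx replicate 1 and without CUMS-Sal replicate 2. Limma without trend, centring, the fit of only the 6 libraries and the replicate block cannot change this value, so they add no support. Planned gene lists and the rescaling outside mitochondrial mRNAs could not be run without gene names. Few reads limit genes under 3.72 FPKM the most.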

Other observations

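Single genes varied widely within a group. Among tested genes with at least 20 reads per library on average, 6 varied more than 4-fold among the CUMS-Sal libraries, 8 among the CUMS-Flx libraries and 7 among the CUMS-Alb libraries. In Ctrl-Sal, which holds the library farthest from the rest, 39 did. The gene of 4236 bp is one of the 6: besides 8 and 11 reads in CUMS-Sal replicates 1 and 3, it had 542 reads in Ctrl-Sal replicate 2 and 582 in CUMS-Alb replicate 3, and 855 to 1215 in the other 8 libraries.

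The reads of genes of up to 1600 bp outside the 9 most abundant made up 22.3, 21.8 and 21.1% of the remaining reads in CUMS-Flx replicates 1, 2 and 3 and 21.2, 20.7 and 21.4% in CUMS-Sal, which overlapped (n = 3, permutation test, exact and two-sided, p = 0.3, and 0.3 adjusted over 4 measures). Ctrl-Sal stood at 22.3% ± 0.394 and CUMS-Alb at 21.1% ± 0.168 (SD, n = 3).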
